A study of Mus musculus with 40 samples.

Results

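Plac8, Hk2, Dusp6, Eif2s2, Prss30, Tm4sf20, Trim15, Rnf24 and Epsti1 are 9 of the 45792 mouse genes counted in colons of mice given, or not given, the gut protozoan Tritrichomonas musculis (T.mu). They were chosen by their count differences in total colonic tissue, being higher with T.mu at days 14 and 48 but not at day 3. Their total tissue values are therefore a description, and tests are given for them only in epithelial cells, which the choice did not use. The choice states no numeric threshold.

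RNA came from mice that had received 2000000 sorted T.mu cells and from mice that had received no inoculum, taken 3, 14 or 48 days later. Total colonic tissue and colonic epithelial cells were sequenced separately as 3' digital gene expression libraries, which read the ends of transcripts. Each combination of tissue, day and inoculum has 3 libraries at days 3 and 14 and 4 libraries at day 48, 40 in all, each from 1 numbered litter, and a litter number holds both T.mu and control animals. The series' design text speaks of 3 mice per group, while day 48 has 4 libraries in each. Strain, sex and age are not given in the sources used here.

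T.mu is a flagellated protozoan of the mouse cecum and colon that is known to activate the epithelial inflammasome and the release of IL-18. The colon wall holds epithelium above a connective tissue layer with immune cells, vessels and smooth muscle, so total tissue mixes these cell types, and in such bulk RNA a change in the number of cells of a type and a change in RNA per cell cannot be told apart. The genes here have different jobs. Hexokinase 2 (Hk2) phosphorylates glucose as it enters glycolysis, Dusp6 is a phosphatase that switches off the kinase ERK, Eif2s2 is the beta subunit of the factor that carries initiator tRNA to the ribosome, and Prss30 is a serine protease of the distal intestine. Tm4sf20 belongs to the L6 family of tetraspanin-like membrane proteins, Trim15 and Rnf24 carry the RING fold of ubiquitin ligases, Epsti1 is an interferon-induced gene of epithelial and stromal cells, and Plac8 encodes a small cysteine-rich protein first described in placenta.

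Mouse gene counts per library ranged from 220717 to 6756616 in total tissue and from 170291 to 2866306 in epithelium. The depth imbalance ran in opposite directions at the later days in total tissue, where the median T.mu library held 2093251 counts at day 14 and the median control 351445, while at day 48 the T.mu median was 504696 and the control median 3323898. At day 48 all 4 T.mu total tissue libraries carry one second sequencing index and all 4 controls another, so index and inoculum cannot be told apart there. In the other tissue and day combinations both arms share the index. Within each tissue and arm the index also changes with the day, so index and day cannot be told apart in levels compared between days. The only entry in the table that is not a mouse gene had 1425 to 42755 CPM (counts scaled to a common library size) in total tissue libraries with T.mu and 5.11 to 969 CPM in controls. All 8 epithelial markers were detected in every total tissue group.

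The 9 genes lie on chromosomes 1, 2, 5, 6, 10, 14 and 17. A window of 300 bases around the annotated start, most of it upstream, was taken from RefSeq (GRCm38.p6) for 8 of the 9 genes, with 10 windows in all because Plac8 and Trim15 have 2 starts each. For 4 genes 1 window that holds a searched motif is printed, to show what the promoters of genes with this shared pattern have and lack, each 5' to 3'. Capitals in Hk2, Eif2s2 and Plac8 mark the core of the hypoxia response element, ACGTG on either strand. Capitals in Trim15 mark a STAT gamma-activated site (TTCNNNGAA) near the left end and an AP-1 site (TGANTCA) near the right end, both palindromic.
Hk2, chr6:82774405-82774704, minus strand: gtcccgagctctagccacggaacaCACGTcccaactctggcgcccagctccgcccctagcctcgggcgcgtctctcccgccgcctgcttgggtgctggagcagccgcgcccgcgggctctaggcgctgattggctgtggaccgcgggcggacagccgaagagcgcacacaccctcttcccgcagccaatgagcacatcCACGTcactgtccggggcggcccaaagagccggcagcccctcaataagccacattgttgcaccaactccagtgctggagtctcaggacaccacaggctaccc
Eif2s2, chr2:154892857-154893156, minus strand: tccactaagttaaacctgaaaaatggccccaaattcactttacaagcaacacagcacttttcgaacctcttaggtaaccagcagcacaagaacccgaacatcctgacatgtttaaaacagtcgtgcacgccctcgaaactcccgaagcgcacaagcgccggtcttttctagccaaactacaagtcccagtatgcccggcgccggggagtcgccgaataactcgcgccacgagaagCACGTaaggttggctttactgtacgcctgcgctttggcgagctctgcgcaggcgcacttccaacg
Plac8, chr5:100563047-100563346, minus strand: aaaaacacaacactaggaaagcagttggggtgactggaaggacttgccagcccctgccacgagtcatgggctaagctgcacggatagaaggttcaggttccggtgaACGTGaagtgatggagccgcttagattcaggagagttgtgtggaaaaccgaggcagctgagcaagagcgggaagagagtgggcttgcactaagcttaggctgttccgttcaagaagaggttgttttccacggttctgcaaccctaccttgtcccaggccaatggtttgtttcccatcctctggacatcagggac
Trim15, chr17:36867161-36867460, minus strand: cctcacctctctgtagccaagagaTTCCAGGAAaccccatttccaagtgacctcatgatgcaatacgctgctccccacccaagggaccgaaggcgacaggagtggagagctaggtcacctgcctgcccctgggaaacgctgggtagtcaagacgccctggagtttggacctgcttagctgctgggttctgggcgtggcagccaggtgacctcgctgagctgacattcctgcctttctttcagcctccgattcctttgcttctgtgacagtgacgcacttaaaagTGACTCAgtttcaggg
The hypoxia element core was in 3 of the 10 windows, that of Plac8 at 1 of its 2 starts, and in 19.6% of all 32851 promoter windows of the same length. The STAT site was in 2 of the 10 windows, both of Trim15, and in 8.3% of all windows, and the AP-1 site was in the same 2 windows and in 7.81% of all windows. These 2 Trim15 windows overlap and share the marked sites, so by gene each motif was in 1 of 8. The interferon-stimulated response element (GAAA, any 2 bases, GAAA, on either strand) was in none of the 10 windows, including that of Epsti1, and in 3.44% of all windows. Counted by gene, it was in a window of 0 of the 8 genes and of 15 of 29 type I interferon response genes listed for comparison. ETS (CCGGAAG), cAMP response (TGACGTCA), HNF4 (CAAAGTCCA) and CDX (TTTATGG) letters, searched on both strands, were also in none of the 10, against 8.86%, 1.79%, 0.475% and 2.75% of all windows. No match says only that these letters are not in these windows.

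Plac8 was the most abundant of the 9 in total tissue. At day 3 it had 2093, 2195 and 1955 CPM in T.mu tissue of litters 1, 2 and 3, against 1805, 1653 and 1536 CPM in controls of the same litters. By day 14 the libraries held 2237, 4489 and 3611 CPM with T.mu, against 1626, 1484 and 1398 CPM in controls. The day 48 values were 2510, 2850, 2112 and 2678 CPM with T.mu in litters 1 to 4, against 1445, 1285, 1187 and 1178 CPM in controls. Every T.mu library was above every control at each of the 3 days, although Plac8 was not called at day 3. The log2 fold change, T.mu over control, was 0.32 ± 0.16 at day 3, 1.20 ± 0.17 at day 14 and 0.99 ± 0.14 at day 48 (SE of the edgeR fit, here and for the other genes).

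Hk2 commits glucose to metabolism inside the cell. At day 3 it had 87.8, 101 and 88.1 CPM with T.mu and 92.9, 44.2 and 66.0 CPM in controls. By day 14 the values were 179.5, 272 and 257 CPM with T.mu, against 80.5, 125 and 99.4 CPM in controls, and at day 48 it had 188, 209, 207 and 177 CPM with T.mu, against 98.2, 115, 79.1 and 66.7 CPM in controls. The groups overlapped at day 3 through 1 control library and were separate at the later days, where the T.mu means were 2.32 and 2.17 times the control means. Its log2 fold changes were 0.45 ± 0.22, 1.23 ± 0.24 and 1.13 ± 0.20 at days 3, 14 and 48.

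Dusp6, which ends ERK signals, was level between the arms at day 3, with 49.6, 54.1 and 44.0 CPM in T.mu tissue and 52.4, 48.0 and 38.3 CPM in controls. With T.mu at day 14 the values were 271, 296 and 199 CPM, against 121, 125 and 124 CPM in controls. The controls at day 14 had an SD of 2.14 CPM but were themselves above all day 3 libraries. Dusp6 levels thus also differed between the control libraries of these days, where day and sequencing index cannot be told apart. At day 48 it had 90.7, 159.8, 135 and 168 CPM with T.mu, against 60.2, 103, 72.5 and 88.7 CPM in controls, and the arms overlapped, although the T.mu animal was higher in 4 of 4 litters. Dusp6 had log2 fold changes of 0.10 ± 0.22, 1.07 ± 0.23 and 0.77 ± 0.20.

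Eif2s2, the translation initiation subunit, had 139, 179.9 and 138 CPM with T.mu at day 3, against 151, 135 and 188 CPM in controls. Day 14 values were 286, 378 and 297 CPM with T.mu, against 161, 158 and 221 CPM in controls. Day 48 values were 155, 262, 201 and 211 CPM with T.mu, against 132, 136, 123 and 88.7 CPM in controls. The arms overlapped at day 3 and were separate at days 14 and 48, with the smallest gap at day 48 between T.mu in litter 1 and control in litter 2. Eif2s2 had log2 fold changes of -0.05 ± 0.20, 0.80 ± 0.21 and 0.80 ± 0.18.

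Prss30, the intestinal protease, had 570.0, 701 and 477 CPM with T.mu at day 3, against 598, 614 and 621 CPM in controls. The protease reached 590.1, 995 and 761 CPM with T.mu at day 14, against 397, 478 and 504 CPM in controls. Its day 48 values were 476, 730.4, 509.8 and 539 CPM with T.mu, against 335, 363, 356 and 384 CPM in controls. Day 48 T.mu libraries spanned about the range of the day 3 T.mu libraries, while the controls at days 14 and 48 were all below the day 3 controls. The difference between arms at the later days thus sits on a control level that was lower than at day 3, with control means of 611, 459 and 359 CPM at days 3, 14 and 48. Its log2 fold changes of -0.07 ± 0.17, 0.76 ± 0.18 and 0.65 ± 0.16 were the lowest of the 9 at the 2 later days.

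Tm4sf20, the L6 membrane protein, had the lowest log2 fold change of the 9 at day 3, when its level was 213, 287 and 181 CPM with T.mu and 267, 228 and 314 CPM in controls. At day 14 it had 491, 772 and 633 CPM with T.mu, against 247, 266 and 367 CPM in controls, and at day 48 it had 463, 633, 454 and 598 CPM with T.mu, against 325, 419, 271 and 199 CPM in controls. The arms were separate at both later days, and control means stayed near each other over time, at 269.5, 294 and 303 CPM. Tm4sf20 had log2 fold changes of -0.24 ± 0.22, 1.08 ± 0.23 and 0.82 ± 0.19.

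Trim15, a RING protein found at focal adhesions, had 71.4, 77.3 and 88.9 CPM with T.mu at day 3, against 52.4, 63.2 and 49.4 CPM in controls. Day 14 Trim15 values were 113, 243 and 184 CPM with T.mu, against 57.5, 54.0 and 71.7 CPM in controls. Those at day 48 were 71.2, 165, 68.1 and 84.2 CPM with T.mu, against 40.3, 54.0, 34.9 and 69.1 CPM in controls. T.mu libraries were all higher at days 3 and 14, whereas at day 48 the library of litter 2 stood far above the rest and the lowest T.mu library was below the highest control. The log2 fold changes were 0.52 ± 0.27, 1.49 ± 0.30 and 0.99 ± 0.26.

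Rnf24 and Epsti1 were the least abundant, and their counts were low. Rnf24, a membrane protein with a RING finger, had 40.3, 21.6 and 29.1 CPM with T.mu at day 3 and 26.5, 21.9 and 14.7 CPM in controls. At day 14 it had 60.9, 71.1 and 92.9 CPM with T.mu, against 23.0, 8.32 and 40.2 CPM in controls, the middle control resting on 2 counts. At day 48 it had 51.8, 79.9, 61.0 and 75.8 CPM with T.mu, against 41.1, 32.5, 23.1 and 37.1 CPM in controls. The arms overlapped at day 3 and were separate later, with log2 fold changes of 0.53 ± 0.30, 1.28 ± 0.34 and 1.02 ± 0.27. A Pank2 transcript overlaps the last 500 bases of Rnf24 on the opposite strand, and since the strand of counting is not given in the sources used here, reads of the 2 genes could be mixed. Pank2 held 883 counts over the 40 libraries and Rnf24 held 1838. The processed pseudogene Snrpert overlaps Rnf24 on the same strand and held 156 counts. The end of Eif2s2 likewise matches the gene Gm9892 at 99.2% identity over 358 bases, and Gm9892 held 612 counts against 11194 for Eif2s2. The antisense gene Gm17034 overlaps Hk2 and held 29 counts against 7188.

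Epsti1, the interferon-induced member, had 25.7, 36.1 and 29.9 CPM with T.mu at day 3, against 24.3, 21.6 and 20.3 CPM in controls. Epsti1 at day 14 stood at 33.3, 44.6 and 26.6 CPM with T.mu, against 11.5, 0 and 12.5 CPM in controls. The library at 0 was the shallowest in total tissue, where a count of 0 allows up to 13.6 CPM (3 counts, counting error only). Its libraries at day 48 held 19.4, 47.3, 23.7 and 42.1 CPM with T.mu, against 7.08, 19.4, 10.7 and 11.3 CPM in controls. T.mu means stayed between 30.6 and 34.8 CPM at the 3 days, while control means were 22.1, 7.997 and 12.1 CPM, and the arms overlapped at day 48 alone. The log2 fold changes were 0.48 ± 0.34, 1.79 ± 0.46 and 1.41 ± 0.35, the largest of the 9 at the later days.

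**Figure D1:**
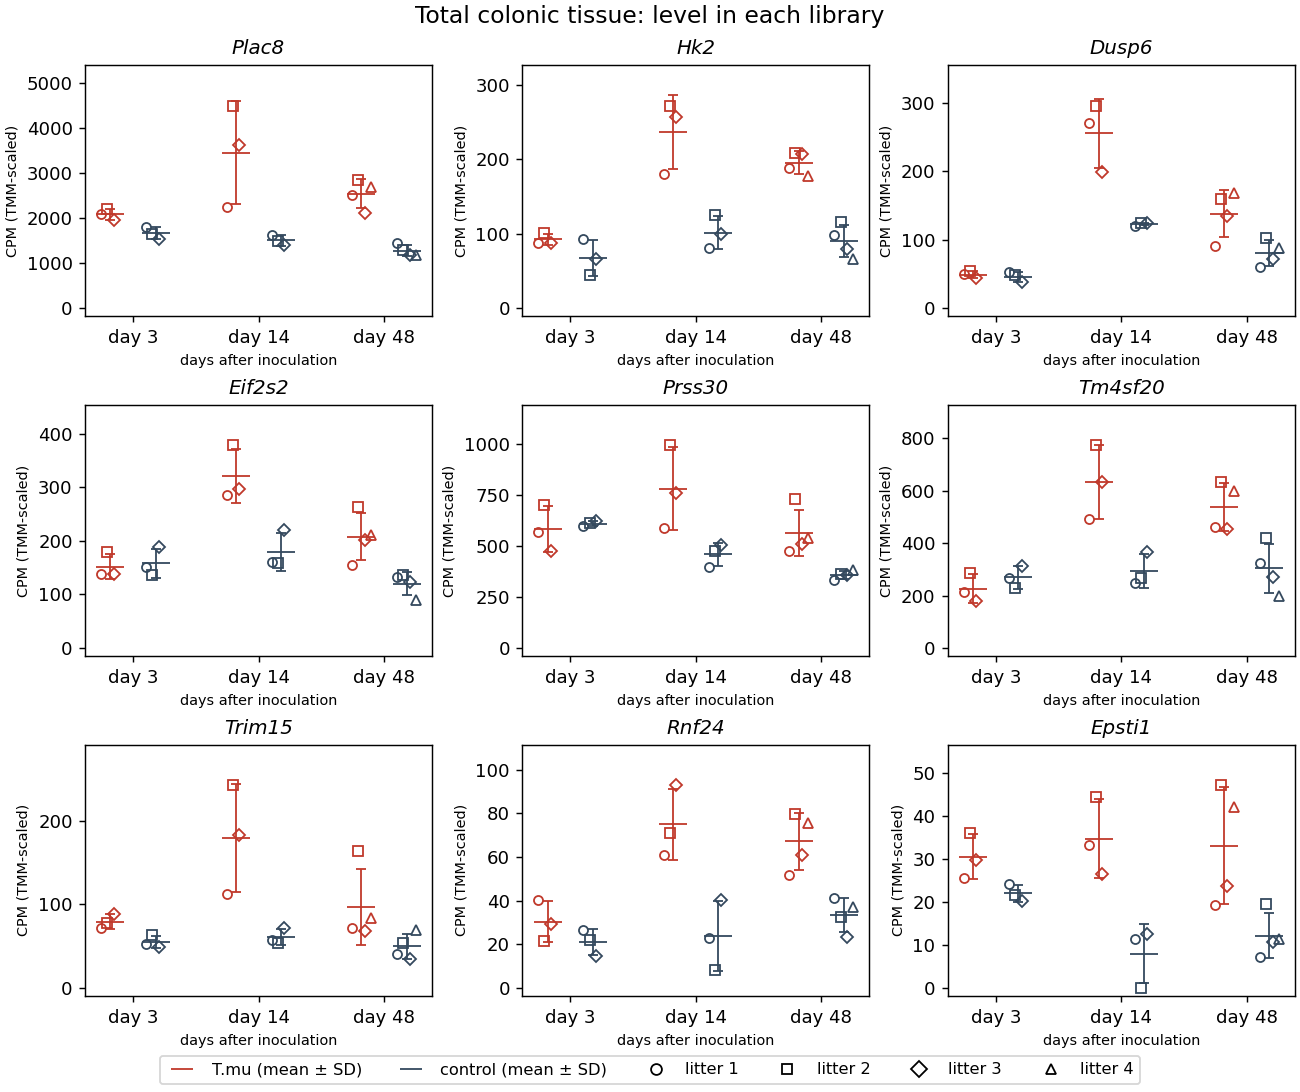
Level of each of the 9 genes (y axis, TMM-scaled CPM, linear from 0) in each total colonic tissue library, by day after inoculation (x axis), with T.mu left of control at each day. Open symbols are libraries with the shape giving the litter, and bars are group means ± SD. At day 14 every T.mu library lies above every control for all 9 genes, and the T.mu library of litter 2 (square) is the highest of its group for 8 of them.

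Over the 9 genes the median log2 fold change in total tissue was 0.32 at day 3, 1.20 at day 14 and 0.99 at day 48, beside -0.01, 0.06 and -0.11 over all 11696 genes tested. EdgeR's quasi-likelihood test with Benjamini-Hochberg adjustment called 0, 9 and 9 of them higher at days 3, 14 and 48, which follows the choice, while over all genes 0.47%, 0.804% and 1% were called higher at the 3 days. Every T.mu library was above every control for 3 members at day 3 (Plac8, Trim15 and Epsti1), for 9 at day 14 and for 6 at day 48, where this held for 6.84%, 8.76% and 2.72% of all genes. The members were chosen from these same libraries, so their counts without overlap are a description too. A gene not called at day 3 need not have responded differently at day 3. When the response was compared between days in a single test, 8 of the 11696 genes (0.0684%) were called and none of the 9 was among them, so the name late-rising describes calls per day and not a tested difference between days.

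The T.mu library of litter 2 was the highest of its group for 7 of the 9 genes at day 3, for 8 at day 14 and for 8 at day 48. Without it, the fold changes stayed above 0 for all 9 genes at days 14 and 48, but 2 of the 9 were called at each of these days (Plac8 and Hk2). Calls over all genes fell too, from 111 to 66 at day 14 and from 210 to 138 at day 48. Without libraries under 400000 counts, 1 of the 9 (Plac8) was called at day 14 and 5 at day 48, with 27 and 99 calls over all genes. Leaving out single other libraries gave 3 of 9 at day 14 without control litter 1 and 4 without control litter 2, with 54 and 72 over all genes. At day 48 it gave 4 of 9 without control litter 3 and likewise without T.mu litter 4, with 100 and 114 over all genes. With litter as a block, 7 were called at day 14, without Rnf24 and Epsti1, and 9 at day 48, with 97 and 217 over all genes. These counts come from the libraries that chose the genes and are a description.

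Marker sums of several cell types differed between the arms at the later days in total tissue, some of them with overlap. The summed level of the 8 epithelial markers was 9813 to 11510 CPM with T.mu at day 14 and 7525 to 9642 CPM in controls, without overlap. Divided by that sum in the same library, a scaling added after seeing the data, Hk2, Dusp6, Eif2s2 and Prss30 moved by more than their replicate SD at day 14, to log2 ratios of 0.87, 0.71, 0.51 and 0.42. The other members stayed within it, at 0.83 for Plac8, 0.78 for Tm4sf20, 1.22 for Trim15, 1.40 for Rnf24 and 1.84 for Epsti1. At day 48 no member moved by more than its replicate SD, with ratios from 0.64 for Prss30 to 1.41 for Epsti1. These ratios come from the libraries that chose the genes and are a description. The 7 T cell markers summed to 12.97 to 18.4 CPM with T.mu at day 14, against 0 to 11.5 CPM in controls, and to 9.78 to 16.8 CPM with T.mu at day 48, against 1.77 to 11.6 CPM in controls. Trbc2 was at 0 in the day 14 controls, and Cd3e and Trbc1 with T.mu at day 48. None of the 7 T cell markers passed the filter in total tissue, so none was tested. A count of 0 in the shallowest day 14 control allows up to 13.6 CPM, which lies within the T.mu range. The 5 adipocyte markers at day 48 summed to 44.3 to 177 CPM with T.mu and to 404 to 1934 CPM in controls, with Plin1 and Lep at 0 with T.mu. The 8 B and plasma cell markers at day 48 summed to 400 to 712 CPM with T.mu and to 197 to 468 CPM in controls. The share of counts on ribosomal RNA genes and Lars2 was 6.63% to 9.68% with T.mu at day 14, against 10.8% to 13.6% in controls without overlap, and at day 48 its median was 13.7% with T.mu and 9.68% in controls. The part of these marker and RNA differences in the members' values was not tested.

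In epithelial cells none of the 9 genes was called at any day, for the mean response over the 3 days, or for a response that differs between days, by edgeR's quasi-likelihood test with Benjamini-Hochberg adjustment over 10119 genes. Over all genes, 0.356%, 0.504% and 0.287% were called at days 3, 14 and 48, 3.39% for the mean response and 0% for the difference between days. At an unadjusted p under 0.05 there were 1 member at day 3 (Hk2), 0 at day 14, 1 at day 48 (Tm4sf20), 1 for the mean (Prss30) and 0 for the difference between days, where 11.1%, 10.3%, 4.58%, 18.9% and 4.17% of all genes were. DESeq2 and limma voom also called 0 of the 9 in each of these comparisons. The median log2 fold change of the members was 0.09, 0.20 and 0.07 at days 3, 14 and 48, against 0.07, 0.01 and 0.01 over all genes.

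**Figure D2:**
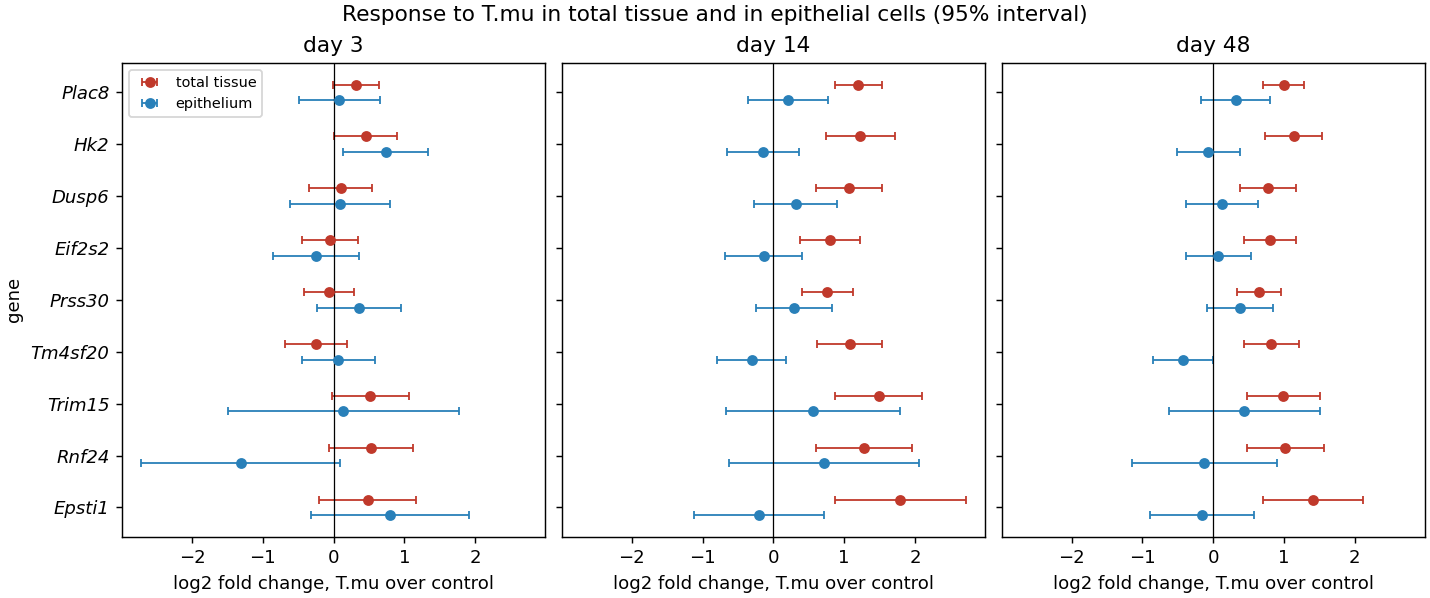
Log2 fold change, T.mu over control (x axis), of the 9 genes (y axis) at day 3, day 14 and day 48, in total tissue (red, the libraries that chose the genes) and in epithelial cells (blue, libraries the choice did not use). Points are edgeR estimates and bars their 95% intervals. The total tissue intervals above 0 at days 14 and 48 follow from the choice of the genes. At day 3 the interval of Hk2 lies above 0 in both tissues, though it was called in neither, and those of the other genes include 0. In epithelium all 9 intervals include 0 at day 14 and 8 of 9 do at day 48, where that of Tm4sf20 lies just below 0.

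Tm4sf20 in epithelium lay below the controls at the later days, although it was not called. It had 237, 321 and 333 CPM in T.mu epithelium at day 14, against 383, 358 and 361 CPM in controls, and 273, 407, 309.5 and 407 CPM at day 48, against 439, 468, 441 and 522 CPM in controls. All T.mu libraries were below all controls at both days. The log2 fold change was -0.31 at day 14 (95% interval -0.80 to 0.18, adjusted p = 0.724, edgeR) and -0.42 at day 48 (-0.84 to -0.0043, adjusted p = 0.998, edgeR), so neither was called. Whether the response differs between total tissue and epithelium was not tested, since total tissue chose the gene.

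Hk2 was higher with T.mu in epithelium at day 3 only in the unadjusted test. It had 114, 82.0 and 102 CPM with T.mu, against 46.2, 73.5 and 56.9 CPM in controls, with no overlap. The log2 fold change was 0.74 ± 0.30 (95% interval 0.13 to 1.34, adjusted p = 0.331, edgeR). At day 14 it had 94.3, 113 and 126 CPM with T.mu, against 125, 139 and 104 CPM in controls, and the arms overlapped there and at day 48. The log2 fold changes at those days were -0.14 (-0.65 to 0.37) and -0.07 (-0.51 to 0.37).

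Plac8 had 1140, 2003 and 2530 CPM in T.mu epithelium at day 14, against 1560, 1738 and 1631 CPM in controls, and 1333, 2541, 1634 and 2754 CPM at day 48, against 1466, 1690, 1682 and 1797 CPM in controls. T.mu libraries spread on both sides of the controls, with SDs of 702 and 689 CPM with T.mu at days 14 and 48, against 89.6 and 139 CPM in controls. The log2 fold changes were 0.20 (95% interval -0.37 to 0.77) and 0.32 (-0.18 to 0.81), with adjusted p of 0.870 and 0.998 (edgeR). Prss30 had 133, 135 and 144 CPM with T.mu at day 14 and 110.4, 87.8 and 137 CPM in controls, and it was higher with T.mu in 3 of 3 litters at day 14 and in 3 of 4 at day 48. Its mean response over the days was 0.34 (0.03 to 0.65, adjusted p = 0.204, edgeR), which was not called. Its day 48 values were 127, 96.4, 146 and 95.1 CPM with T.mu and 74.4, 104, 93.4 and 88.1 CPM in controls.

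Dusp6 had 70.0, 94.2 and 91.1 CPM in T.mu epithelium at day 14, against 56.4, 77.7 and 70.1 CPM in controls. The arms overlapped through T.mu in litter 1, and overlapped widely at day 48, when the values were 77.1, 52.7, 70.5 and 56.3 CPM with T.mu and 54.8, 48.1, 65.6 and 69.6 CPM in controls. The log2 fold changes were 0.31 (95% interval -0.27 to 0.90) and 0.12 (-0.39 to 0.63). Eif2s2 had 93.1, 115 and 142 CPM with T.mu at day 14, against 119.8, 110.0 and 152 CPM in controls, and 118, 238, 148 and 193 CPM with T.mu at day 48, against 186, 150.4, 154 and 168 CPM in controls. T.mu libraries reached both above and below the controls at day 48. Its log2 fold changes were -0.14 (-0.68 to 0.41) and 0.07 (-0.39 to 0.53).

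The 3 rare genes were measured with little precision in epithelium. Trim15 had 4.48, 11.7 and 12.8 CPM with T.mu at day 3, from 4 to 16 counts per library. The day 3 controls had 3.08, 6.84 and 20.7 CPM, from 1 to 4 counts, and the arms overlapped. At day 14 Trim15 had 9.73, 20.5 and 15.04 CPM with T.mu, against 7.05, 12.9 and 10.3 CPM in controls. Its log2 fold change of 0.55 at day 14 had an interval of -0.68 to 1.78. Rnf24 had 8.96, 11.7 and 6.41 CPM with T.mu at day 3, against 24.6, 18.8 and 20.7 CPM in controls, all T.mu libraries lower, from 4 to 11 counts per library (log2 fold change -1.31, -2.71 to 0.09, adjusted p = 0.497, edgeR). At day 14 Rnf24 had 9.73, 6.08 and 8.85 CPM with T.mu, against 0, 7.40 and 6.84 CPM in controls, where the library at 0 allows up to 3.49 CPM. Epsti1 had 24.6, 29.3 and 20.02 CPM with T.mu at day 3, against 18.5, 11.96 and 10.3 CPM in controls, all T.mu libraries higher, from 2 to 25 counts (0.80, -0.32 to 1.91, adjusted p = 0.625, edgeR). Its values at days 14 and 48 were -0.20 (-1.12 to 0.72) and -0.16 (-0.90 to 0.58). In all, 2 members at day 3 lay wholly higher with T.mu and 1 wholly lower, where 7.78% and 4.55% of all genes did. At day 14 there were 0 higher and 1 lower (9.91% and 8.78% of all genes), and at day 48 also 0 higher and 1 lower (2.01% and 2.1%).

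**Figure D3:**
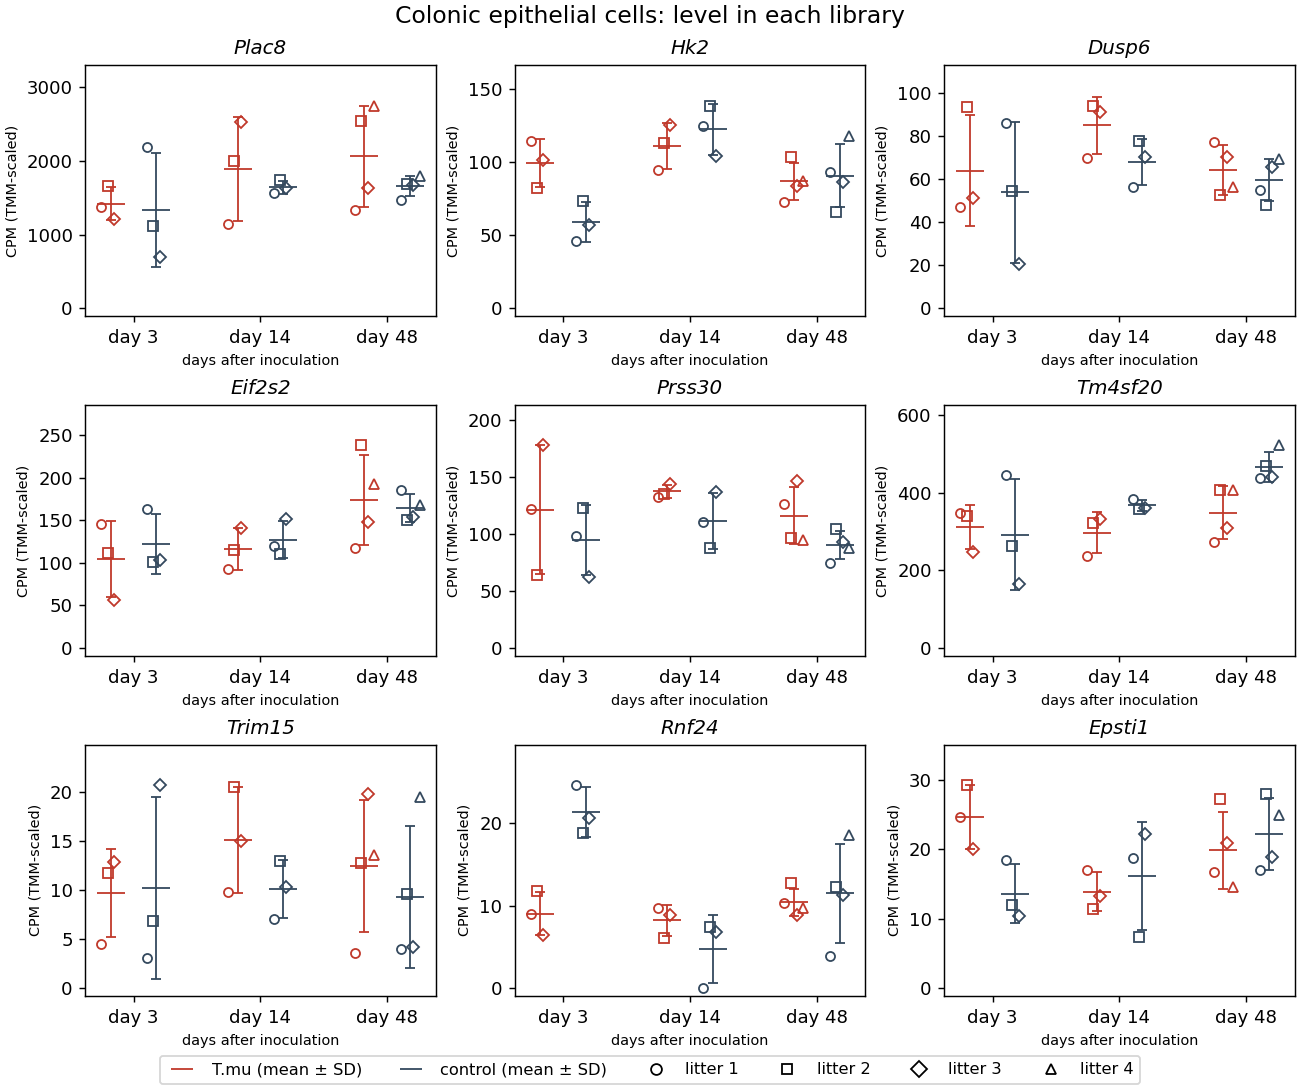
Level of each of the 9 genes (y axis, TMM-scaled CPM, linear from 0) in each colonic epithelial library, by day after inoculation (x axis), with T.mu left of control at each day. Open symbols are libraries with the shape giving the litter, and bars are group means ± SD. The arms overlap for most genes and days, and Tm4sf20 lies lower with T.mu at days 14 and 48.

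Epithelial marker sums also differed between the arms in these libraries. The 8 markers summed to 6557 to 9757 CPM with T.mu at day 3, against 3962 to 5828 CPM in controls, and to 7753 to 10216 CPM with T.mu at day 14, against 4872 to 6818 CPM in controls. At day 48 the ranges overlapped, at 3902 to 7498 CPM with T.mu and 4032 to 5019 CPM in controls. Red blood cell markers at day 3 summed to 87.9 to 279 CPM with T.mu and to 10.3 to 58.1 CPM in controls. Goblet cell markers at day 14 summed to 29303 to 32784 CPM with T.mu and to 37818 to 50874 CPM in controls, without overlap, and Tff3 was called lower. The share of counts on ribosomal RNA genes and Lars2 was 13.2% to 22.8% with T.mu at day 3, against 30.3% to 31.3% in controls, and 12.99% to 15.5% with T.mu at day 14, against 22.5% to 28.3% in controls, again without overlap. The part of these differences in the members' epithelial values was not tested.

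Without T.mu the 9 genes differed in how their levels compared between total tissue and epithelial libraries. With both tissues scaled together, Trim15 averaged 52.1 ± 11.1 CPM in the 10 control total tissue libraries and 10.1 ± 6.13 CPM in the 10 control epithelial libraries (SD), a ratio of 5.16. Prss30 averaged 443 ± 107 CPM in total tissue and 102 ± 25.6 CPM in epithelium, a ratio of 4.33. For both genes no epithelial library reached the lowest total tissue library. Tm4sf20 averaged 277 ± 63.8 CPM in total tissue and 401 ± 109.8 CPM in epithelium, and Plac8 averaged 1392 ± 194 CPM in total tissue and 1623 ± 419 CPM in epithelium, with overlap over the 10 libraries each. Hk2, Dusp6, Eif2s2, Rnf24 and Epsti1 overlapped too. The control total tissue values also entered the choice of the genes, so this is a description. The preparations also differ in makeup, so these ratios do not place a gene in a cell type. With each tissue scaled on its own, the 8 epithelial markers averaged 11368, 8320 and 9666 CPM in control total tissue at days 3, 14 and 48. In control epithelium they averaged 4834, 5807 and 4611 CPM. Goblet markers at day 3 averaged 11125 CPM in control total tissue and 37094 CPM in control epithelium.

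The genes whose group profile in total tissue was most like the mean of the 9 were found by root mean square distance between centred log2 CPM over the 6 groups, among 9566 other genes with a mean of at least 5 CPM. They were Trim40, Zfp160, Ripk3, Ccl5, Mtmr7, Arl1, Nampt, Casp8, Ceacam2 and Pfkp, at distances from 0.10 for Trim40 to 0.21 for Pfkp, where the median gene was at 0.66. The members themselves lay at 0.16 (Plac8) to 0.75 (Epsti1). Trim40 had log2 fold changes of 0.47 ± 0.26, 1.41 ± 0.29 and 1.18 ± 0.24 at days 3, 14 and 48, side by side with 0.52, 1.49 and 0.99 for Trim15. Trim40 was picked by its likeness to the members in these same libraries, so this match is a description. In the GENCODE M21 annotation Trim15 and Trim40 lie on chromosome 17 with only Trim10 between them among protein-coding genes, and Trim31 comes next after Trim40. Trim10, and Trim26 on the other side of Trim15, were not among the RING ligase genes called at any day in total tissue. The list also holds Ripk3 (a necroptosis kinase) and Casp8 (a protease that restrains this kinase). Nampt, the rate-limiting enzyme of NAD salvage, had 0.34 ± 0.21, 0.74 ± 0.23 and 1.10 ± 0.19. Of these nearest genes only Trim40 was called at both later days, and none was called at day 3. Ripk3 and Arl1 were called at day 14 alone, and Casp8 and Nampt at day 48 alone. Zfp160, Ccl5, Mtmr7, Ceacam2 and Pfkp were called at no day.

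**Figure D4:**
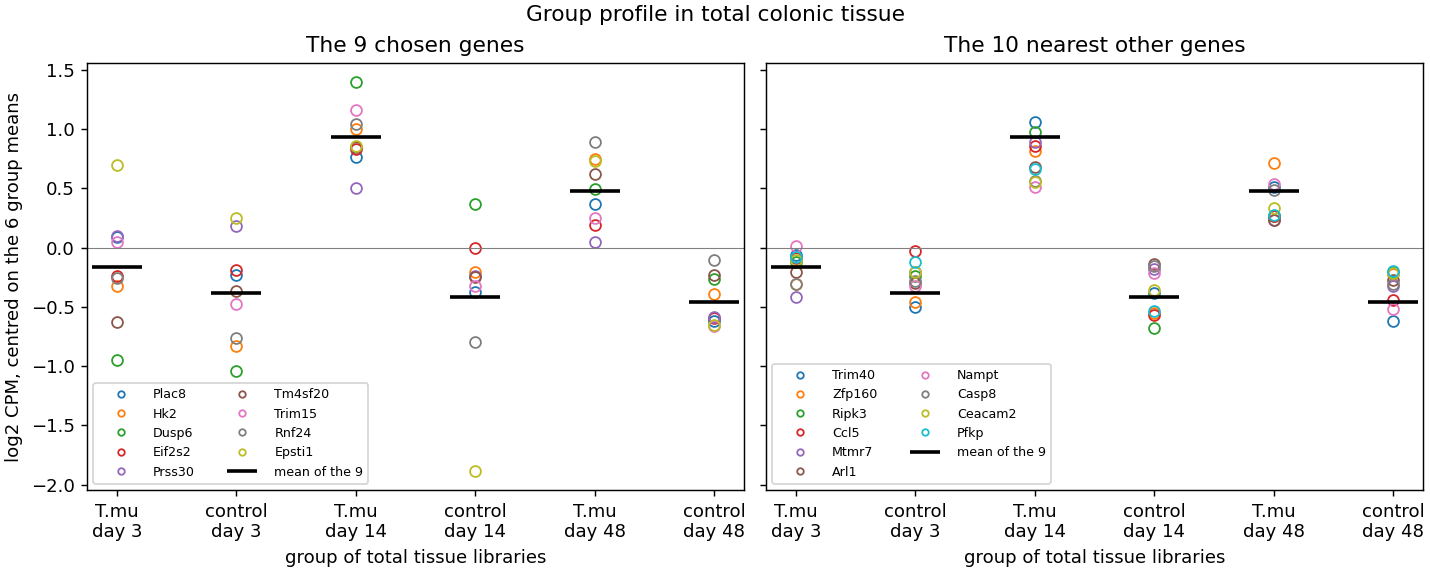
Mean log2 CPM of each gene in the 6 groups of total tissue libraries (x axis), centred on the gene's mean over the 6 groups (y axis, log2 units), with T.mu left of control at each day. The left panel shows the 9 chosen genes and the right panel the 10 other genes nearest to their mean, which is drawn as a black bar. The mean of the 9 is 0.93 with T.mu at day 14 and 0.48 at day 48, and between -0.16 and -0.46 in the other 4 groups.

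The choice states no threshold, but by the edgeR calls used here 9 further genes had the same order of calls. Of 51 genes called higher at both days 14 and 48 in total tissue, 33 were also called at day 3 and 18 were not, namely the 9 members and Ifih1, Cyp51, Oas1g, Casp4, Lypd8, Nfkbiz, Psmb9, Trim40 and Trim31, named here after their values were seen. Among these 9, log2 fold changes ranged from 0.83 for Lypd8 to 2.67 for Oas1g at day 14, beside 0.76 for Prss30 to 1.79 for Epsti1 among the members. At day 48 the smallest among all 18 was 0.52 for Lypd8, and Prss30, at 0.65, was the smallest member. At day 3 the largest were 1.31 for Oas1g among the other 9 and 0.53 for Rnf24 among the members. In epithelium 1 of the other 9 was called at day 14 (Psmb9, an interferon-induced proteasome subunit) and 4 in the mean over days (Oas1g, Lypd8, Psmb9 and Trim31), against 0 of the 9 members. Of the 33 genes called at all 3 days in total tissue, 32 were tested in epithelium, and 10, 12 and 10 were called there at days 3, 14 and 48, and 29 in the mean.

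Genes that share a pathway with a member were counted from fixed lists, beside shares of all genes called lower of 0.145% at day 14 and 0.795% at day 48. Of 22 glycolysis genes tested in total tissue, 0 were called at day 3, and at day 14 Ldha, lactate dehydrogenase, rose (1494 ± 290.2 CPM with T.mu and 986 ± 114 CPM in controls, log2 0.60, adjusted p = 0.0475) and Slc16a1, a lactate transporter, fell (165 ± 21.4 CPM with T.mu and 285 ± 52.7 CPM in controls, log2 -0.78, adjusted p = 0.0402, edgeR, n = 3 each). At day 48 the call was Pfkl, a phosphofructokinase, which fell (128 ± 27.0 CPM with T.mu and 222 ± 30.3 CPM in controls, adjusted p = 0.0158, edgeR, n = 4 each). No glycolysis gene was called at day 14 without control litter 1, control litter 2, T.mu litter 2 or T.mu litter 3, and none at day 48 without control litter 3 or T.mu litter 4, and with the litter block 1 was called at day 14. By limma voom and without libraries under 400000 counts none was called at either day. The list's median log2 fold change was -0.05, 0.37 and -0.09 at days 3, 14 and 48, against 0.45, 1.23 and 1.13 for Hk2. Of 19 ERK feedback and target genes, 0, 0 and 1 were called, the last being Myc, with 0 counts in the 4 T.mu libraries of day 48 and 88 in the 4 controls. A count of 0 in those 2601206 T.mu counts allows up to 1.153 CPM, against 5.56 ± 2.01 CPM in controls (adjusted p = 0.0486, edgeR, n = 4 each), and no ERK gene was called with the litter block, by DESeq2, by limma voom, or when any single library other than T.mu litter 2 was left out. Of 38 translation initiation genes, 0, 0 and 1 were called, the last being Eif3k, which was lower (61.0 ± 8.05 CPM with T.mu and 109 ± 6.67 CPM in controls, adjusted p = 0.0266, edgeR, n = 4 each), and none was called without control litter 1, control litter 3 or T.mu litter 2. Of 8 membrane serine protease and inhibitor genes, 0 were called at any day by edgeR, DESeq2 or limma voom, with 1, 2 and 2 at an unadjusted p under 0.05 at days 3, 14 and 48. Without the filter on low counts 1 was called at day 48, as was 1 without control litter 1, and 1 was called at day 14 without control litter 3 or without T.mu litter 1.

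Lists close to Tm4sf20, Trim15 and Epsti1 had more calls, all of them higher with T.mu. Over all genes 0.47%, 0.804% and 1% were called higher at days 3, 14 and 48. Of 24 surface colonocyte and L6 family genes tested, 0 were called at day 3, 3 at day 14 (Car4, Lypd8 and Emp1) and 3 at day 48 (Krt20, Lypd8 and Tmigd1). None of these called genes is an L6 family gene like Tm4sf20. The day 14 count was 1 without control litter 1 or T.mu litter 2, 5 without control litter 3 or T.mu litter 1, 6 without the filter and 0 without libraries under 400000 counts. The day 48 count was 1 without control litter 3, T.mu litter 2, T.mu litter 4 or the libraries under 400000 counts, 1 by limma voom or from that day alone, 5 with the litter block or RLE scaling and 7 by DESeq2. Car4, a carbonic anhydrase of the surface epithelium, had 2181 ± 449 CPM with T.mu at day 14 and 1292 ± 198 CPM in controls (adjusted p = 0.00322, edgeR, n = 3 each). Lypd8, which keeps flagellated bacteria off the epithelium, had 23556 ± 4151 CPM with T.mu at day 14 and 13234 ± 1478 CPM in controls (adjusted p = 5.86e-05, edgeR, n = 3 each). Of 35 RING ligase genes, 3 were called at day 3 (Trim12a, Trim30d and Rnf213) and 4 at each later day (Trim30d, Trim31, Trim40 and Rnf213), so Trim30d and Rnf213 were called at all 3 days, Trim31 and Trim40 at the 2 later ones. At day 14 this count was 2 by limma voom or from that day alone and 1 without libraries under 400000 counts, and at day 48 it was 7 by DESeq2. Of 41 type I interferon response genes, 27, 28 and 25 were called at days 3, 14 and 48, with medians of 1.71, 2.21 and 1.60. Without libraries under 400000 counts, 10 and 15 were called at days 14 and 48. Oas1a, an antiviral RNA sensor, had 137 ± 22.8 CPM with T.mu at day 14 and 20.5 ± 7.78 CPM in controls (adjusted p = 2.94e-08, edgeR, n = 3 each). Epsti1, with 0.48, 1.79 and 1.41, was below that list's median at each day. Trim12a, Trim30d, Oas1a and Oas1g belong to families of similar copies, between which reads could be split.

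In epithelium the same lists gave 0 calls per day for glycolysis, ERK, translation, membrane protease and surface colonocyte genes, and 1 for the RING ligases (Rnf213, at day 3, a call lost by limma voom, from that day alone and without libraries under 400000 counts). At an unadjusted p under 0.05, days 3, 14 and 48 had 9, 3 and 2 of 19 glycolysis genes. ERK genes had 4, 4 and 0 of 18, and translation genes 7, 4 and 3 of 37. Protease genes had 1, 3 and 2 of 8, and surface colonocyte genes 3, 3 and 1 of 22. Of all genes 11.1%, 10.3% and 4.58% were under it. For the mean over days edgeR called 3 glycolysis, 3 RING ligase, 2 surface colonocyte and 1 protease gene higher and 1 translation gene lower. No ERK gene was called for the mean, where 3.39% of all genes were. Of 38 type I interferon genes 29 were called higher for the mean. Of the surface colonocyte genes 1 was called at day 14 by DESeq2 and by limma voom, and DESeq2 called 1 RING ligase gene at days 14 and 48. At day 14, surface colonocyte calls came in 5 of 14 alternative settings (at most 1 gene) and RING ligase calls in 6 of 14 (at most 2). RING ligase calls came in 4 of 16 settings at day 48. Glycolysis and surface colonocyte calls came in 1 of 14 settings each at day 3, and protease calls in 1 of 14 at day 14. The type I interferon list had 13, 14 and 13 of 38 called higher at days 3, 14 and 48. Its count was 4 at day 3 by limma voom and without libraries under 400000 counts, and 8 from that day alone. It was 8 at day 14 without control litter 2 and 9 without T.mu litter 3, and 8 at day 48 without control litter 3. Oasl2, an interferon-induced gene of the oligoadenylate synthetase family, had 114 ± 42.0 CPM with T.mu at day 14 and 8.81 ± 2.74 CPM in controls (adjusted p = 1.1e-08, edgeR, n = 3 each).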

How the data were processed

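The authors deposited 1 table of whole-number counts per gene, without normalization, 1 column per library. Per the submitters' processing notes the tools included STAR and Subread (no version). Build, annotation, strand and any handling of molecular identifiers: not given in the sources used here. The entry that is not a mouse gene (0.389% of counts) was left out. Symbols came from GENCODE M21 (98.6% of IDs matched). In 61.2% to 87.2% of cases per library, counts from 1 to 20 were even, so low counts are less precise than they look, and counting floors (3 counts) cover counting error only.

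Each tissue was fitted with edgeR 4.0.16 (R 4.3.3): filterByExpr (minimum count 10, total 15), TMM scaling, robust quasi-likelihood, 6 groups of day and inoculum, Benjamini-Hochberg adjustment over all genes, threshold 0.05. All 9 members passed the filter in both tissues. CPM use TMM-scaled libraries. limma 3.58.1 and DESeq2 1.42.0 were alternatives, and the fit was tested on simulated data. The members, lists and tests were chosen with earlier results of these data known. The text names all members, the 10 most alike genes, and up to 3 genes per pathway list. Litter comes from the labels, and so pairs the arms. Deviations from group means correlated on average at 0.0105 within and -0.0040 between litters in total tissue, and at 0.0266 and -0.0110 in epithelium. No 2 libraries were identical, and replicates differed by more than counting noise (chi-square per degree of freedom 2.75 to 61.3). That the animals of a litter and arm at different days are separate animals is not stated, so p-values measure the spread between these libraries.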

Additional observations from a re-analysis of the deposited data

Results flagged for a closer look

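Trim15 in total tissue at day 48 had 1 T.mu library, that of litter 2, at 165 CPM, far from the other 3, of which the next was at 84.2 CPM and the lowest at 68.1 CPM. This was 1 of 36 combinations of a gene and a group of 4 libraries examined in this way. The genes share the same libraries, so these combinations are not independent. For normally spread values chance alone gives such a gap in about 1 in 20 groups.

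Tm4sf20 was lower with T.mu in epithelium in every litter at day 14 (log2 fold change -0.31) and at day 48 (-0.42), while it was higher with T.mu in total tissue in every litter at both days. The difference between total tissue and epithelium was not tested, since the total tissue values chose the gene.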

How the results depend on the processing

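In epithelium, 0 of the 9 members were called in any comparison under every alternative run: RLE scaling, no filter, DESeq2, limma voom, litter as a block, counts halved, single-day fits, leaving out libraries under 400000 counts, and leaving out each library (the range is 0 to 0 for day 3, day 14, day 48, the mean and the difference between days). In total tissue the members' log2 fold changes at days 14 and 48 were above 0 in 288 of 288 settings, and 6 moved by more than the replicate SD. Members called in total tissue ranged from 1 to 9 at day 14 and from 2 to 9 at day 48. Calls over all genes ranged there from 27 to 196 and from 99 to 364. At day 3 in total tissue 7 values changed sign, of Dusp6, Eif2s2 and Prss30. In epithelium 29 of 636 log2 fold changes changed sign, none of them called with either sign. Those were Eif2s2 (-0.011) and Rnf24 (0.078) at day 48 with limma voom, Dusp6 at day 3 with halved counts (-0.018), Plac8 (-0.013) and Tm4sf20 (-0.026) at day 3 from that day alone, Dusp6 (-0.11) and Eif2s2 (0.020) at day 3 without shallow libraries, and others on leaving out 1 library. That gave, at day 3, -0.20 to 0.66 for Plac8, -0.17 to 0.52 for Dusp6, -0.60 to 0.11 for Eif2s2, -0.0061 to 0.64 for Prss30, -0.17 to 0.51 for Tm4sf20 and -0.27 to 0.84 for Trim15. At day 14 it gave -0.056 to 0.47 for Plac8, -0.29 to 0.025 for Eif2s2 and -0.55 to 0.14 for Epsti1, at day 48 -0.19 to 0.10 for Hk2, -0.12 to 0.22 for Eif2s2 and -0.42 to 0.22 for Rnf24, and for the mean over days -0.22 to 0.017 for Eif2s2. The number of all genes called moved as well. In total tissue it was 56, 111 and 210 at days 3, 14 and 48, against 87, 185 and 364 with DESeq2, 66 and 108 at days 14 and 48 with limma voom, 85 at day 3 with halved counts, 103 and 119 at days 3 and 48 with single-day fits, and 27 and 99 at days 14 and 48 without shallow libraries. In epithelium it was 36, 51 and 29, against 95 at day 14 with DESeq2, 8 at day 3 with limma voom, 20 and 80 at days 3 and 14 with halved counts, 12 and 261 with single-day fits, and 9 and 90 without shallow libraries. Leaving out 1 library gave 41 to 55, 54 to 196 and 100 to 293 genes in total tissue and 18 to 52, 19 to 50 and 13 to 28 in epithelium at days 3, 14 and 48. Changes over 1.5 times came in total tissue at day 14 without control litter 1 (54), control litter 2 (72), T.mu litter 2 (66) or control litter 3 (196), and at day 48 without control litter 3 (100), T.mu litter 4 (114) or T.mu litter 2 (138). In epithelium they came at day 3 without control litter 1 (18) or control litter 3 (23), at day 14 without T.mu litter 3 (19), control litter 2 (20), control litter 1 (21) or T.mu litter 1 (27), and at day 48 without control litter 3 (13). The cause was not tested. With the litter block (paired within litters), 51, 97 and 217 genes were called in total tissue and 34, 59 and 29 in epithelium, and no member's call in epithelium changed. Depth limits Trim15, Rnf24 and Epsti1 most in epithelium.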
